A study of Mus musculus with 16 samples.

Results

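The genes of antigen presentation were followed in haematopoietic stem cells (HSCs) of mice: the class I heavy chains H2-K1 and H2-D1, their partner B2m, the class I loading factors Tap1 and Tapbp, the class II chains H2-Aa, H2-Ab1 and H2-Eb1, their chaperone Cd74 and the class II transactivator Ciita. They were chosen by name, 5 genes for class I and 5 for class II, and all 10 were found among the 46078 genes of the count table. HSCs were sorted as Lin-Sca1+cKIT+CD48-CD150+ cells, in pools of 30, from tibia, femur and humeri of untreated C57/Bl6 mice. One genotype was WT. The other, Gfra2-/-, lacks the neurturin receptor GFRα2, and the study used it as a model of lost cholinergic nerves. Bone fraction HSCs are called endosteal and marrow fraction HSCs central. The 15 libraries used were 4 WT endosteal, 4 WT central, 4 Gfra2-/- endosteal and 3 Gfra2-/- central, lettered A to D within a group in the order of the table. The study's figure legend calls its 4 replicates biological, while its methods name 4 replicates per sample and 3 sequenced per condition. The sources used here give no age and do not tie a pool to a given animal. P-values therefore measure the spread between pools, and how much of it is technical was not tested.

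MHC class I molecules show peptides from inside the cell to CD8 T cells and NK cells, and nearly every nucleated cell makes them. Cytosolic peptides enter the endoplasmic reticulum through the TAP transporter, and tapasin helps to load them onto a heavy chain bound to β2-microglobulin. Class II molecules show peptides taken up from outside to CD4 T cells and are made mainly by B cells, dendritic cells and macrophages. Their α and β chains assemble on the invariant chain CD74, and CIITA switches all of these genes on together with factors bound to the X and Y boxes of their promoters.

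A library held between 826487 and 18550008 reads assigned to genes. WT central libraries were the shallowest, with 826487 to 3367289, against 7649803 to 14716308 in Gfra2-/- central libraries. The study's methods set a minimum of uniquely mappable reads for a library. Whether each library met it was not checked here. WT central C, with 826487 reads on genes, stayed in the main fits of its group. Spike-in RNA took 0.192% to 7.10% of counts, with 1 library of every group below 0.5% (WT endosteal D, WT central D, labelled Gfra2-/- endosteal D and labelled Gfra2-/- central C). All 10 HSC markers examined, Kit among them, were counted in each of the 15 libraries. Gfra2 itself had 0 to 4 counts in WT libraries, 0 to 1 in Gfra2-/- central libraries, and 2, 47, 1 and 9 in Gfra2-/- endosteal libraries A to D. The counts of 47 and 9 are above those of every WT library. Whether they come from the allele or from a wrong label was not tested, so libraries are called here by their label. B cell markers (7 genes, led by Ighm and Cd79b) summed to 11.8 to 115 counts-per-million (CPM) in 11 libraries and to more in 4: WT central D with 540 CPM, labelled Gfra2-/- endosteal D with 3557 CPM, and labelled Gfra2-/- central B and C with 368 and 712 CPM. Of these 4, all but labelled Gfra2-/- central B were also low in spike-in RNA. WT central D also held 864 CPM of S100a8 and 796 CPM of S100a9, which neutrophils make.

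By median level the class I genes stood above the class II genes, with Tap1 and Cd74 close to each other at the boundary. CPM were scaled by the TMM method over all libraries, and for an order of genes they were divided by the length of each gene's exons in kilobases (kb). By the median over 15 libraries B2m stood at 5687 CPM per kb, rank 6 of 25188 genes with counts. H2-K1 followed at 1127 CPM per kb (rank 30) and H2-D1 at 694 CPM per kb (rank 40). These top 3 kept their order in 15 of 15 libraries. Tapbp (78.8 CPM per kb), Tap1 (38.6 CPM per kb) and Cd74 (30.3 CPM per kb) came next, and Tap1 was above Cd74 in only 9 of 15 libraries. H2-Aa and H2-Ab1, with medians of 17.4 and 16.9 CPM per kb, could not be ordered, since H2-Aa was the higher in 5 of 15 libraries. H2-Eb1 had a median of 7.14 CPM per kb, and Ciita, with 0.0206 CPM per kb, was the lowest. Summed over H2-K1, H2-D1 and B2m, class I took 0.634% to 1.35% of all gene counts in a library. Class II, summed over Cd74, H2-Aa, H2-Ab1 and H2-Eb1, took 0.00157% to 0.117%. In pools of cells a larger number of cells that make a message and more of it in each cell cannot be told apart.

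The promoters of 3 members are shown because they carry sequence elements through which class I and class II genes are known to be controlled. The RefSeq promoter table (GRCm38.p6) held 7 of the 10 members. Each printed stretch covers the 180 bases from 220 to 41 bases before the most downstream listed start of the gene, 5′ to 3′ on its strand. The printed stretches overlap no annotated exon. Capitals mark matches to 4 letter strings searched on both strands: GGGATTCCC (enhancer A, an NF-κB site), TTTCACTTC (an interferon response element), TGACG (a CRE-like core, as in the X box) and GATTGG (the core of the Y box, which NF-Y binds).
H2-K1, chr17:34000374-34000553, minus strand: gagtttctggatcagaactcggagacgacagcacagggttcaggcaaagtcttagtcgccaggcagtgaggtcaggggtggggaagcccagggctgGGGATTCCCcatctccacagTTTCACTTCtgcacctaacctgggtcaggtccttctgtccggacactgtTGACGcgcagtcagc
B2m, chr2:122147467-122147646, plus strand: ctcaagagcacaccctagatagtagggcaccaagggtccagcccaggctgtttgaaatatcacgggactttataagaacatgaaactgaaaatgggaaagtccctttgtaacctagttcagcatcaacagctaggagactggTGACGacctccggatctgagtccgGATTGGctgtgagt
H2-Aa, chr17:34287864-34288043, minus strand: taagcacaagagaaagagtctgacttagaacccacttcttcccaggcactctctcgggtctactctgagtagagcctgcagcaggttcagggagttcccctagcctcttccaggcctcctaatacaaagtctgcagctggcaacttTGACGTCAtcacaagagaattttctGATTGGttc
In H2-Aa the string TGACG and its reverse complement CGTCA overlap. H2-K1 and H2-D1 were the 2 of 7 member promoters with GGGATTCCC, which 0.185% of 27025 promoters hold in the same window, and the 2 of 7 with TTTCACTTC, which 0.348% hold. TGACG stood in 5 of 7 (H2-K1, H2-D1, B2m, Tap1 and H2-Aa) against 12.4% of all promoters, and GATTGG in 4 of 7 (H2-D1, B2m, H2-Aa and H2-Eb1) against 11.5%. Tapbp matched none of the 4 strings in this window. The windows of H2-D1, Tap1 and Tapbp lay wholly in annotated exons of some gene (180 of 180 bases), and that of H2-Eb1 in part (74 bases). Those of H2-D1 and Tapbp lay inside the annotated gene, so they are not sequence upstream of its first start. A match is a description of the sequence and not a measured site.

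H2-K1, a classical heavy chain of class I, was the most even gene of all 10. In WT endosteal libraries A to D it read 3380, 3517, 3085 and 2958 CPM, and in WT central libraries 3136, 2962, 2741 and 3310 CPM. Libraries labelled Gfra2-/- read 3144, 4184, 3466 and 4006 CPM when endosteal, and 3775, 3665 and 2816 CPM when central. All 4 groups overlapped, and the highest of 15 libraries was 1.53 times the lowest. H2-K1 lies at chr17:33996017-34000347 on the minus strand (GRCm38), as 1 of 7 members in or beside the MHC on chromosome 17, while B2m lies on chromosome 2, Ciita on chromosome 16 and Cd74 on chromosome 18.

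H2-D1 (chr17:35262730-35267499, plus strand), the other classical heavy chain of C57/Bl6 mice, varied more. Its levels were 2345, 1777, 1789 and 1272 CPM in WT endosteal and 852, 1598, 863 and 1186 CPM in WT central libraries. In libraries labelled Gfra2-/- they were 2009, 2125, 2078 and 2572 CPM when endosteal and 2575, 2287 and 1671 CPM when central. WT central libraries were low, and each of the 3 central libraries labelled Gfra2-/- stood above all 4 of them. H2-K1 and H2-D1 moved together across libraries, with a Spearman rho of 0.76 over 15 libraries and 0.75 over the 11 that are not WT central. Since these correlations pool groups and depths, they are given as a description, here and throughout. H2-D1 shares 12.8% of its 50-base stretches, and H2-K1 9.63%, with other annotated transcripts, and reads that aligned to more than 1 place were not counted.

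B2m (chr2:122147686-122153083, plus strand), which gives class I molecules their light chain, had the highest level of the set. It read 4027, 4778, 8356 and 8279 CPM in WT endosteal libraries and 3076, 3861, 3646 and 6330 CPM in WT central libraries. In libraries labelled Gfra2-/- it read 4891, 4897, 7119 and 4815 CPM when endosteal and 5193, 6869 and 4026 CPM when central. The 4 groups overlapped, and WT libraries covered the widest range. No 50-base stretch of B2m is shared with another transcript.

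Tap1, a subunit of the peptide transporter (chr17:34187553-34197225, plus strand), had its highest group mean in WT central libraries. It stood at 416, 329, 193 and 211 CPM in WT endosteal and at 378, 333, 464 and 285 CPM in WT central libraries. Libraries labelled Gfra2-/- read 112, 128, 192 and 331 CPM when endosteal and 128, 202 and 171 CPM when central. All 3 central libraries of that label were below all 4 WT central ones. Over the 15 libraries Tap1 had a rho of -0.71 with the total gene counts (-0.48 over the 11 libraries that are not WT central), and H2-D1 had a rho of 0.65 (0.17 over the same 11). Tapbp, which encodes tapasin, overlapped between all groups. Its lowest and highest libraries in a group were 200 and 544 CPM in WT endosteal, 256 and 505 CPM in WT central, 200 and 512 CPM in labelled Gfra2-/- endosteal and 302 and 316 CPM in labelled Gfra2-/- central libraries. Exons of Tapbp overlap those of Gm19412 and Zbtb22, so some of its reads could not be assigned to 1 gene and were left uncounted.

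**Figure D1:**
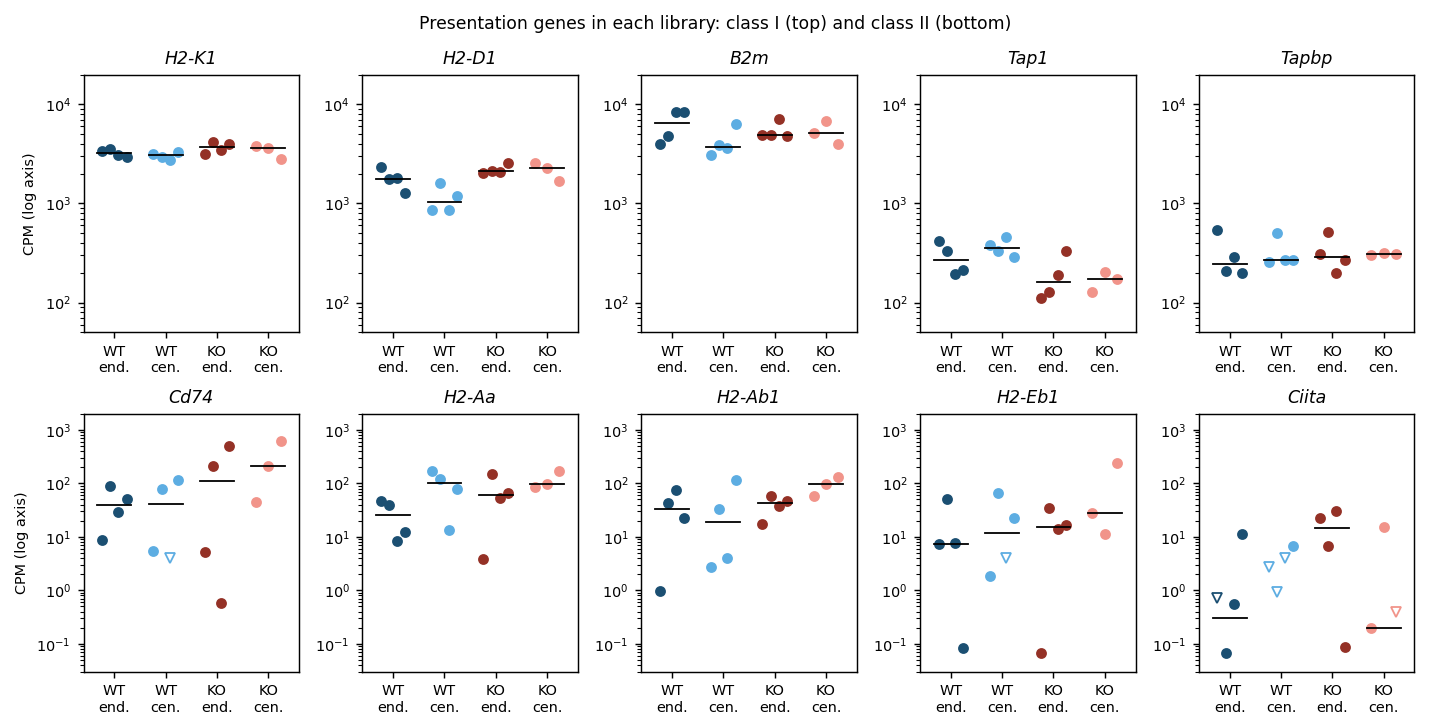
CPM of each gene on a log axis in WT and labelled Gfra2-/- (KO) libraries of endosteal (end.) and central (cen.) bone marrow, 1 symbol for each library and a black line at the group median. Open triangles are libraries with 0 counts, drawn at the level of 3 counts. Class I genes (top, all axes alike) stay within a narrow band, from 1.53 times between lowest and highest library in H2-K1 to 4.15 times in Tap1, while class II genes (bottom, all axes alike) scatter more, except H2-Aa and H2-Ab1 in KO central libraries (85.9 to 167 and 58.5 to 131 CPM).

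Class II genes were uneven: each differed many-fold between libraries of the same group in at least 1 group. Cd74, the invariant chain, read 8.77, 90.0, 29.3 and 50.8 CPM in WT endosteal libraries. WT central libraries held 5.43, 77.7, 0 and 116 CPM, where 3 counts would have given 4.02 CPM in library C. Libraries labelled Gfra2-/- held 5.14, 214, 0.579 and 496 CPM when endosteal and 44.6, 215 and 610 CPM when central. The spread within the endosteal group of that label, from 5 counts in library C to 5660 in library D, was larger than any distance between group medians. Groups overlapped throughout.

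H2-Aa (chr17:34282744-34287823, minus strand), the α chain of the class II molecule that C57/Bl6 mice display, was counted in every library. It read 46.3, 39.2, 8.45 and 12.5 CPM in WT endosteal, and 174, 123, 13.4 and 77.2 CPM in WT central libraries. Libraries labelled Gfra2-/- read 3.86, 147, 53.3 and 66.2 CPM when endosteal and 85.9, 95.7 and 167 CPM when central. In WT central bone marrow 3 of 4 libraries stood above all WT endosteal ones, and WT central C stood among them with 10 counts. Its β chain H2-Ab1 (chr17:34257689-34269419, plus strand) followed a different order. H2-Ab1 read 0.9747, 43.3, 76.7 and 22.7 CPM in WT endosteal, and 2.72, 33.6, 4.02 and 116 CPM in WT central libraries. Libraries labelled Gfra2-/- read 17.3, 57.4, 37.8 and 46.9 CPM when endosteal and 58.5, 97.8 and 131 CPM when central. The 3 central libraries of that label lay above its 4 endosteal libraries, though the nearest of each, 58.5 and 57.4 CPM, almost touched. The rho between α and β chain was 0.30 over 15 libraries and 0.63 over the 11 that are not WT central.

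H2-Eb1 (chr17:34305867-34316674, plus strand) encodes the β chain of a class II molecule that C57/Bl6 mice do not complete, for want of a working α chain gene. It ranged from 0.0818 to 51.5 CPM in WT endosteal and from 0 to 66.8 CPM in WT central libraries. In libraries labelled Gfra2-/- it ranged from 0.0676 to 34.8 CPM when endosteal and from 11.2 to 239 CPM when central. The value of 239 CPM came from central library C, which also held the most Cd74, H2-Aa and H2-Ab1 of its group. Cd74 went with H2-Ab1 (rho 0.71) and with H2-Eb1 (rho 0.69) over 15 libraries, and over the 11 libraries low in B cell markers with a rho of 0.50 and 0.73.

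Ciita, the master regulator of class II, had no counts in 5 of 15 libraries. Those with more than 10 CPM were WT endosteal D (11.3 CPM), labelled Gfra2-/- endosteal A and C (22.3 and 30.4 CPM) and labelled Gfra2-/- central B (15.5 CPM). In the central library C that led in class II message Ciita had 0 counts, where 3 counts would have given 0.385 CPM, and in endosteal library D of the same label, with 496 CPM of Cd74, it had 1 count. Across 15 libraries the rho of Ciita was -0.04 with Cd74, -0.35 with H2-Aa, 0.26 with H2-Ab1 and -0.20 with H2-Eb1. Its highest rho among the members was with a class I gene, B2m (0.83, and 0.71 over the 11 libraries that are not WT central). With so few counts of Ciita these values are weak. Over the 10 pairs within class I the median rho was 0.02, over the 10 pairs within class II it was 0.39, and over the 25 pairs between classes it was 0.20.

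The unevenness was measured as the biological coefficient of variation (BCV), the spread between libraries of a group beyond counting noise, which edgeR estimates gene by gene and as a trend for genes of the same level. The 5 class I genes had a BCV of 0.25 (H2-K1), 0.30 (H2-D1), 0.33 (B2m), 0.39 (Tap1) and 0.40 (Tapbp), and all 5 lay below the trend. The 5 class II genes had a BCV of 0.79 (H2-Aa), 0.95 (H2-Ab1), 1.25 (Cd74), 1.38 (H2-Eb1) and 1.99 (Ciita), and all 5 lay above it. Of all 15416 genes past the filter, 58.2% lay below the trend. Cd74 stood out most, at 2.41 times the BCV of its level. The counts below and above the trend were the same in the 11 libraries low in B cell markers, and with all libraries thinned to the depth of the smallest one. In the 11 libraries with more spike-in, 4 of 5 class II genes lay above the trend. No test was made of these counts, because the BCV comes from the same libraries.

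**Figure D2:**
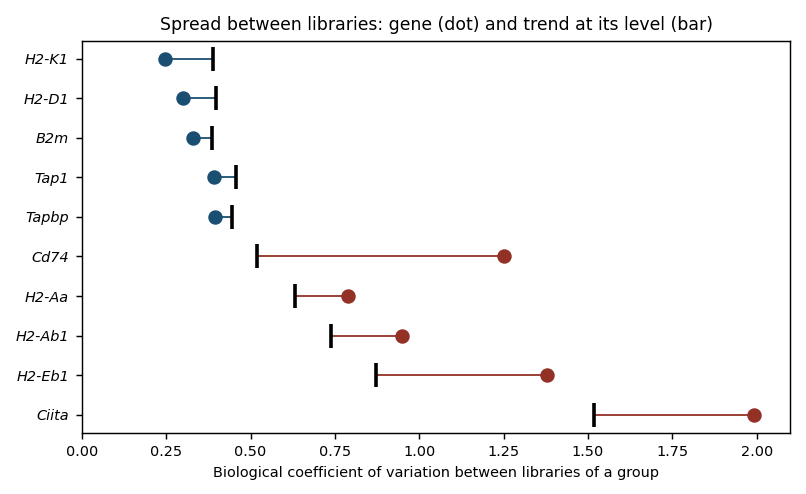
BCV between libraries of a group for each gene (dot) and the trend at its level (black bar), class I in blue and class II in red. Every class I dot lies left of its bar, from 0.25 to 0.40, and every class II dot lies right of it, from 0.79 to 1.99.

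Accessory genes were closer to the share of all genes, 58.2%, below the trend. Of the 12 genes for class I processing, loading and transcription, 9 (75.0%) had a BCV below the trend, with Pdia3 (0.29) and Calr (0.29), both helpers of heavy chain folding, as even as the heavy chains. Among 13 class II accessory and transcription genes past the filter 7 (53.8%) lay below it. H2-DMa, whose product edits class II peptides, was steadier (0.53, close to its trend of 0.51) than the class II chains. Of the factors that bind class II promoters, Rfx5 (0.73), Rfxank (0.98), Nfya (0.59) and Nfyb (0.66) were below their trend and Rfxap (1.01) was above it.

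Class II message was high wherever B cell markers were high, and also in libraries where they were low. Here class I was summed over H2-K1, H2-D1 and B2m, and class II over Cd74, H2-Aa, H2-Ab1 and H2-Eb1. The class II sum was 331 CPM in WT central D, 626 CPM in labelled Gfra2-/- endosteal D, and 419 and 1147 CPM in labelled Gfra2-/- central B and C. These were the 4 libraries with more than 300 CPM of B cell markers. In the other 11 libraries the class II sum ran from 17.4 to 453 CPM. Over 15 libraries the class II sum and the B cell marker sum had a rho of 0.60, over the 11 libraries low in these markers it was 0.06, and the class I sum had a rho of 0.04 with the markers over 15. Low sums can rest mostly on Cd79b, which was counted in all 15 libraries. In WT endosteal libraries the mean sum was 58.0 CPM, with 55.1 CPM from Cd79b and 0.442 CPM from Ighm. B cells make class II molecules, and Ighm, the heavy chain of IgM, read 1603 CPM in labelled Gfra2-/- endosteal D, against 386 CPM in central C of that label and 120 CPM in WT central D. B cell marker sums by group were 19.1 to 99.0 CPM in WT endosteal, 11.8 to 540 CPM in WT central, 53.3 to 3557 CPM in labelled Gfra2-/- endosteal and 44.1 to 712 CPM in labelled Gfra2-/- central libraries, and 3 to 7 of the 7 markers had counts in a library. Of the 7 dendritic cell markers, Itgax, Batf3 and Xcr1 had 3 counts or fewer over all libraries together, and the sum, most of it from Flt3 and Zbtb46, ran from 0.311 to 97.3 CPM. The 8 macrophage or monocyte markers, led by Cd68 and Ly86, summed to 0.905 to 106 CPM, with the maximum in the same central library C. Labelled Gfra2-/- endosteal B, with 84.8 CPM of B cell markers, still held 214 CPM of Cd74 and had a class II sum of 453 CPM. The part of these markers in the class II levels was not tested.

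**Figure D3:**
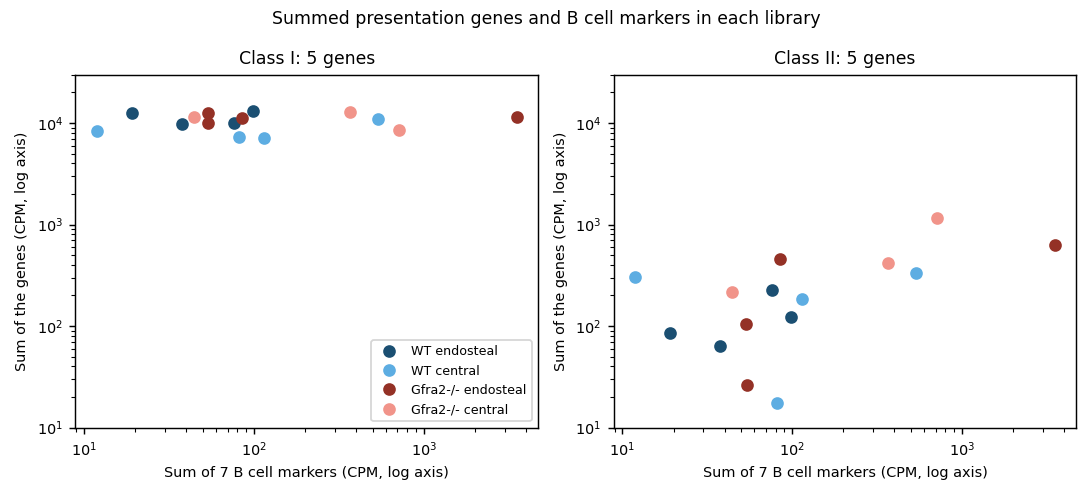
Summed CPM of H2-K1, H2-D1 and B2m (left) and of Cd74, H2-Aa, H2-Ab1 and H2-Eb1 (right) against the summed CPM of 7 B cell markers, all on log axes, 1 point for each of 15 libraries. The panel titles count 5 genes each, but Tap1, Tapbp and Ciita are not in these sums. Class I stays between 7064 and 13230 CPM whatever the markers, and class II runs from 17.4 to 1147 CPM, with the 4 libraries richest in markers all above 300 CPM.

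Groups were compared with the quasi-likelihood test of edgeR on counts, with a false discovery rate (FDR) of 0.1 over all genes tested, as log2 fold changes (log2FC) with their standard error (SE). The first question was whether the HSCs of the endosteal niche differ from central HSCs. Between WT endosteal and WT central HSCs no gene passed the FDR, whether a member or not (edgeR, 0 of 11181 genes, 0.0%), while 882 genes (7.89%) had an unadjusted p under 0.05 and DESeq2 called 216 of 10079 (2.14%). Of the 9 members tested, 0 passed with either tool and 2 had an unadjusted p under 0.05. H2-D1 was 1.58-fold higher in endosteal libraries (log2FC 0.66 ± 0.26 SE, FDR 0.584, edgeR), from a mean of 1796 ± 438 CPM (SD, n = 4) against 1125 ± 351 CPM (SD, n = 4). H2-Aa went the other way, at 26.6 ± 18.9 CPM against 96.9 ± 68.2 CPM (SD, n = 4 each; log2FC -1.88 ± 0.81 SE, FDR 0.601, edgeR). The groups of both genes overlapped, as did those of the other 7 members tested, while 6.36% of all genes had groups that did not. Each WT endosteal library (at least 4416648 counts) was deeper than each WT central one (at most 3367289), so depth and site cannot be told apart here or in the interaction. H2-K1 differed least, with a log2FC of 0.07 and a 95% interval from -0.28 to 0.42. For the class II genes the intervals were far wider, and for Cd74 it ran from -2.68 to 2.30. The median log2FC of the members was -0.17, and of all genes 0.03. Ciita was removed by the filter on low counts, and its mean of 2.98 CPM against 1.69 CPM gave p = 0.543 in an exact two-sided permutation test, where 0.0286 is the smallest p that 4 libraries against 4 allow.

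The same question was put in HSCs labelled Gfra2-/-. Here too no gene was past the FDR (edgeR, 0 of 13860, 0.0%), with 664 genes (4.79%) at an unadjusted p under 0.05 and 156 of 12760 (1.22%) by DESeq2. All 10 members were tested, none passed with either tool, and 1 had an unadjusted p under 0.05. That was H2-Ab1, at 39.9 ± 17.04 CPM (SD, n = 4) in endosteal against 95.9 ± 36.5 CPM (SD, n = 3) in central libraries (log2FC -1.27 ± 0.50 SE, FDR 0.999, edgeR). It was the 1 member of 10 whose groups did not overlap, as was true of 7.34% of all genes and, in this direction, of 3.67%. Without central library C the log2FC of H2-Ab1 was -0.97, and in libraries low in B cell markers, which leave 1 central library, it was -0.62 ± 0.85 SE. The class I genes had log2FC between 0.01 (H2-D1) and 0.19 (Tap1), and scaled by spike-in RNA between -0.56 (Tapbp) and 0.18 (Tap1), where the median of all genes was -0.46. Cd74 and the 3 class II chains lay below 0, with log2FC from -2.50 (H2-Eb1) to -0.70 (Cd74), against 51.6% of all genes above 0, and with wide intervals such as -5.73 to 0.74 for H2-Eb1. Without central library C the log2FC of H2-Eb1 was -0.25. In libraries low in B cell markers Cd74 turned to 0.74. The median log2FC was 0.02 for the members and 0.03 for all genes.

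The second question was whether the genotype changes HSCs in a given site. In central bone marrow 6 of 11772 genes (0.051%) passed the FDR between labelled Gfra2-/- and WT libraries, 1028 (8.73%) had an unadjusted p under 0.05, and DESeq2 called 371 of 10791 (3.44%). None of the 9 members tested was among the 6, and 2 had an unadjusted p under 0.05, H2-D1 and Tap1, in opposite directions. H2-D1 was 1.90-fold higher, at 2178 ± 462 CPM (SD, n = 3) against 1125 ± 351 CPM (SD, n = 4), with a log2FC of 0.92 ± 0.26 SE (FDR 0.318, edgeR). Tap1 was at 167 ± 37.0 CPM (SD, n = 3) against 365 ± 76.1 CPM (SD, n = 4), a log2FC of -1.15 ± 0.34 SE (FDR 0.334, edgeR), and DESeq2 called it (log2FC -1.26, FDR 0.0560); scaled by spike-in RNA the log2FC turned to 0.77, which is -0.98 relative to the shift of 1.75 in the median of all genes. Both genes had groups that did not overlap, as did 12.4% of all genes, 7.99% of them higher and 4.44% lower. Depth moved with these groups, since the shallowest labelled Gfra2-/- central library held more counts than the deepest WT central one, so depth and genotype cannot be told apart in this comparison. With all libraries thinned to the smallest one the log2FC was 0.83 for H2-D1 (FDR 0.326) and -1.30 for Tap1 (FDR 0.258). Without the filter on low counts H2-D1 (FDR 0.0281) and Cd74 (FDR 0.00263) were past the threshold. The share of all genes past it in that fit was not worked out.

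Cd74 and H2-Eb1 had the largest log2FC of the members between the central groups, and wide intervals. Cd74 averaged 290 ± 290 CPM (SD, n = 3) in labelled Gfra2-/- against 49.7 ± 56.4 CPM (SD, n = 4) in WT central libraries, a log2FC of 2.49 ± 1.16 SE with a 95% interval from -0.03 to 5.01 (FDR 0.576, edgeR). In libraries low in B cell markers, which leave 1 labelled Gfra2-/- central library, it was 0.60 ± 2.12 SE, and without central library C it was 1.31. The log2FC was 0.23 for H2-Aa, 1.24 for H2-Ab1 and 1.98 for H2-Eb1, so all 4 class II genes tested lay above 0, as 51.4% of all genes did, but in the libraries with more spike-in H2-Aa (-0.25) and H2-Eb1 (-0.31) were below 0, and H2-Aa also in those low in B cell markers (-0.34). H2-K1 (0.14, 95% interval -0.24 to 0.52) and B2m (0.31, -0.25 to 0.87) differed by less than the spread. The median log2FC of the members was 0.31 and of all genes 0.03. Ciita, again removed by the filter, had a mean of 5.23 CPM against 1.69 CPM (p = 0.543, exact two-sided permutation test, with 0.0286 as the smallest p for 3 against 4).

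In endosteal bone marrow, where the study places the cholinergic niche, no gene passed the FDR between the genotypes (edgeR, 0 of 12970, 0.0%), 868 (6.69%) had an unadjusted p under 0.05, and DESeq2 called 132 of 12757 (1.03%). All 10 members were tested, and 0 passed with either tool, 0 had an unadjusted p under 0.05 and 0 had groups that did not overlap, which 6.24% of all genes had. The class I intervals bound the difference: H2-K1 had a log2FC of 0.20 (95% interval -0.13 to 0.53), H2-D1 0.30 (-0.15 to 0.74) and B2m -0.22 (-0.79 to 0.35). Tap1 was at 191 ± 99.7 CPM against 287 ± 105 CPM (SD, n = 4 each), a log2FC of -0.58 ± 0.40 SE, and its 95% interval, -1.47 to 0.30, includes the value found in central HSCs. Cd74 was at 179 ± 234 CPM against 44.7 ± 34.7 CPM (SD, n = 4 each), a log2FC of 2.00 ± 1.42 SE. Without labelled Gfra2-/- endosteal D, the library with the most B cell markers, it was 0.69 ± 1.44 SE. The medians were 0.17 for the members and 0.03 for all genes.

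Whether the compartment difference itself differed between genotypes was fitted over all 15 libraries. No gene passed (edgeR, 0 of 15416, 0.0%), 1074 (6.97%) had an unadjusted p under 0.05, and DESeq2 called 176 of 14899 (1.18%). Of the 10 members 0 passed with either tool and 0 had an unadjusted p under 0.05. H2-D1 came nearest, with an interaction of -0.66 ± 0.33 SE on the log2 scale (FDR 0.713, edgeR): its endosteal excess in WT HSCs (0.66) was not seen in labelled Gfra2-/- HSCs (0.01), but the difference between those values was not past the threshold. Among class II genes the interval of Cd74 ran from -4.70 to 3.68.

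**Figure D4:**
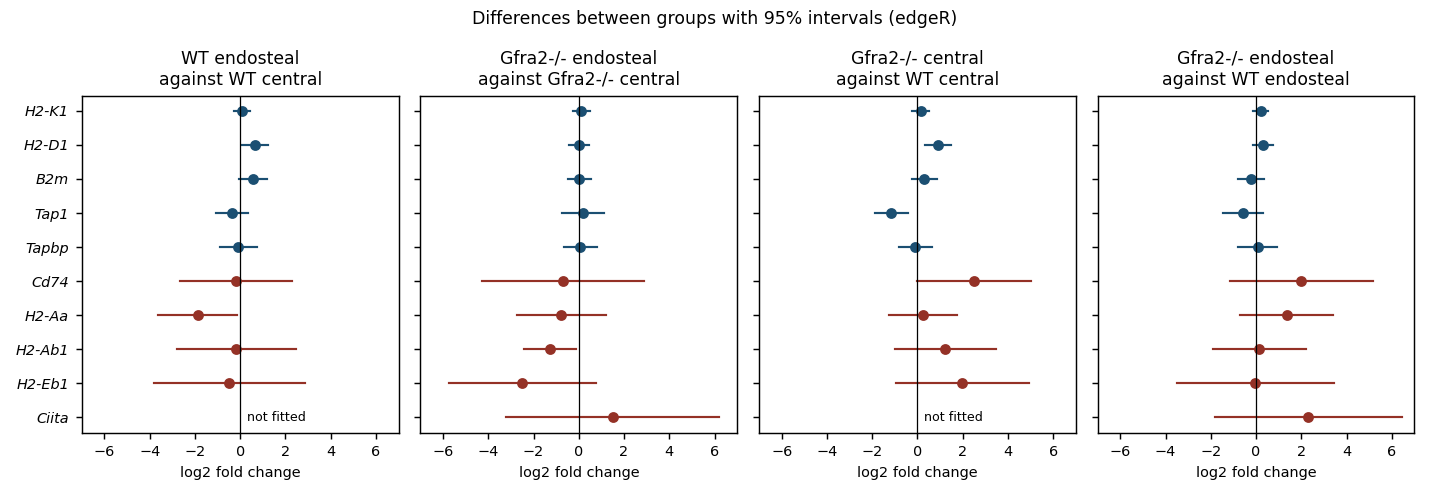
Log2FC of each gene (dot) with its 95% interval (line) in the 4 comparisons between groups, class I in blue and class II in red; Ciita was not fitted where WT central libraries entered. Class I intervals are shorter than those of class II and include 0, except for H2-D1 between the WT sites and H2-D1 and Tap1 between the central groups.

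Other genes of the pathway were taken as 4 lists, 43 genes in all. In the central comparison of genotypes 1 of 40 tested passed the FDR, Canx, as did 0.051% of all genes. There DESeq2 called 2 (all genes 3.44%), and 4 had an unadjusted p under 0.05 (edgeR, all genes 8.73%). In the other comparisons 0 of 39, 42, 41 and 42 passed. DESeq2 called 1, 1, 0 and 1 of them, against 2.14%, 1.22%, 1.03% and 1.18% of all genes. An unadjusted p under 0.05 (edgeR) was found for 5, 2, 5 and 2 of them, against 7.89%, 4.79%, 6.69% and 6.97% of all genes. Canx encodes calnexin, the chaperone that first holds new class I heavy chains. It was at 491 ± 23.7 CPM (SD, n = 3) in labelled Gfra2-/- and 1443 ± 227 CPM (SD, n = 4) in WT central libraries, a log2FC of -1.58 ± 0.23 SE (FDR 0.0590, edgeR; -1.69 and FDR 0.000113 with DESeq2); scaled by spike-in RNA it was 0.13, or -1.62 relative to the median of all genes. The groups did not overlap, with 467, 490 and 515 CPM against 1188 to 1687 CPM, as was true of 4.44% of all genes in this direction. The call was lost when any 1 of these 7 libraries was left out, while the log2FC stayed between -1.67 and -1.50. It was also lost in the libraries with more spike-in (log2FC -1.61, FDR 0.394, edgeR). In those low in B cell markers, with 1 Gfra2-/- central library left, the log2FC was -1.65. In WT libraries Canx was also lower in endosteal than in central HSCs, at a log2FC of -0.71 ± 0.30 SE (FDR 0.590, edgeR), which spike-in scaling turned to 0.68, or -0.90 relative to the median of all genes. Calnexin also serves many other glycoproteins, and Pdia3 and Calr, which act after it, were not called.

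H2-T23 encodes Qa-1, a non-classical class I molecule that shows leader peptides of other class I chains to NK cells. Its levels stood higher with the label Gfra2-/- at both sites, without overlap, as did those of 2.69% of all genes in endosteal and 7.99% in central bone marrow. In endosteal libraries it read 206, 183, 264 and 182 CPM against 114, 116, 160 and 92.6 CPM in WT (log2FC 0.80 ± 0.27 SE, FDR 0.737, edgeR). In central libraries it read 266, 211 and 178 CPM against 136, 81.1, 60.3 and 72.8 CPM (log2FC 1.29 ± 0.43 SE, FDR 0.387, edgeR). All 7 labelled Gfra2-/- libraries were thus above all 8 WT libraries, though neither comparison passed the FDR. The share of all genes set apart in this way over both sites was not counted, and H2-T23 was named for its small p. Of its 50-base stretches, 14.5% are shared with other transcripts.

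Among interferon regulators Irf1 had the higher mean CPM at opposite sites in the 2 genotypes, though spike-in scaling turned the direction in WT. It was not alone: on the TMM scale 7 of the 8 interferon and JAK-STAT regulators had a log2FC of endosteal against central below 0 in WT (median -0.51, all genes 0.03) and 7 of 8 above 0 with the label Gfra2-/- (median 0.23, all genes 0.03), with 0 of 8 past the FDR in either (edgeR; DESeq2 called 1, Irf8, in WT). These counts were not made with spike-in scaling. Irf1, an activator of class I and of Ciita downstream of interferon γ, read 39.0, 43.4, 57.0 and 146 CPM in WT endosteal and 108, 198, 184 and 285 CPM in WT central libraries. With the label Gfra2-/- it read 186, 151, 123 and 294 CPM in endosteal and 68.8, 128 and 81.7 CPM in central libraries. The log2FC of endosteal against central was -1.47 ± 0.51 SE in WT (0.28 with spike-in scaling, -1.30 relative to the median of all genes) and 1.02 ± 0.39 SE with the label Gfra2-/-. The interaction was 2.46 ± 0.68 SE (FDR 0.523, edgeR) and was called by DESeq2 (2.62, FDR 0.0236), and it was 2.30 ± 1.01 SE in libraries low in B cell markers. With spike-in scaling the interaction was 0.74 ± 1.89 SE, or 2.92 relative to the median of all genes. Of the 5 class I genes, 0 had an interaction with an unadjusted p under 0.05 (edgeR), against 6.97% of all genes. Whether IRF1 acts on them in these cells was not tested. Irf8, a factor of B cells and myeloid cells, ran from 0.133 to 7.91 CPM in WT endosteal and from 0.905 to 223 CPM in WT central libraries (log2FC -4.92 ± 1.72 SE, FDR 0.508, edgeR; -5.11 and FDR 0.0174 with DESeq2). Without WT central C, which held the 223 CPM, the log2FC was -2.65. Its highest level was 361 CPM, in labelled Gfra2-/- endosteal D, and without that library its log2FC between endosteal genotypes went from 5.53 to 2.57.

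Of the class II accessory genes, H2-Ob, a β chain of the B cell protein DO that holds back peptide exchange, had 0 to 2.36 CPM in WT central and 18.6 to 47.6 CPM in labelled Gfra2-/- central libraries (FDR 0.318 with edgeR and 0.0250 with DESeq2). The groups did not overlap, as was true of 7.99% of all genes in this direction. Only 2 of 4 WT central libraries, the shallowest group, had counts of H2-Ob. Labelled Gfra2-/- central B and C were rich in B cell markers (368 and 712 CPM), whose part in H2-Ob was not tested. Nfya, a subunit of the Y box factor NF-Y, read 51.8, 87.9, 69.1 and 78.1 CPM in endosteal and 26.4, 25.0 and 26.3 CPM in central libraries labelled Gfra2-/- (log2FC 1.47 ± 0.42 SE, FDR 0.896, edgeR; DESeq2 FDR 0.0231). Its 2 groups stood apart, while Nfya in WT libraries overlapped. Pdia3 was also apart there, with a log2FC of 0.46 ± 0.22 SE (FDR 0.999, edgeR). Rfxank was apart in the other direction (log2FC -0.92 ± 0.61 SE, FDR 0.999, edgeR). Of the 42 pathway genes tested there, 2 were higher without overlap and 1 lower, where 7.34% of all genes did not overlap. Ctss, the protease that trims the invariant chain, came up by the rule for the interaction (3.90 ± 2.08 SE, FDR 0.739, edgeR; -0.26 with spike-in scaling, or 1.92 relative to the median of all genes). It rests on WT central C, which held 223 CPM of Ctss against 4.38 to 17.4 CPM in the rest of that group, and without which the interaction was 1.27.

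**Figure D5:**
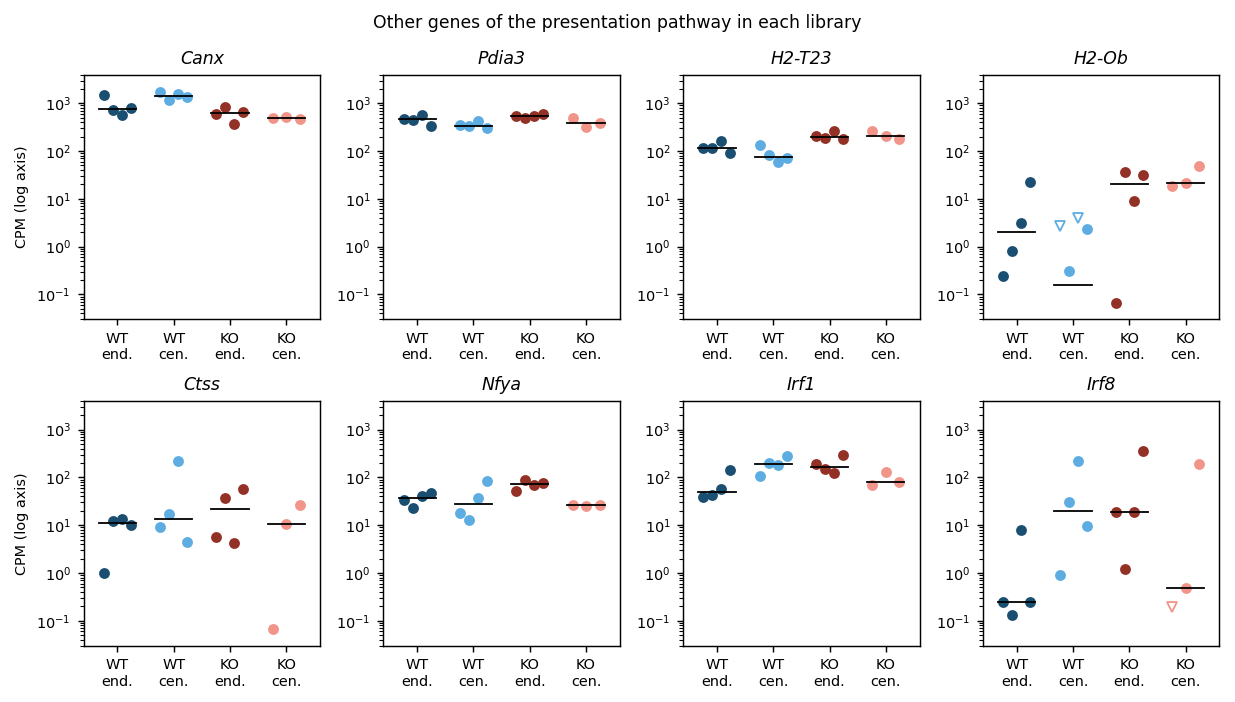
CPM on a log axis of the 8 other pathway genes named by the rule, in WT and labelled Gfra2-/- (KO) libraries of endosteal (end.) and central (cen.) bone marrow, drawn as for the members, with open triangles at the level of 3 counts for libraries with 0. Canx is low in all 3 KO central libraries (467 to 515 CPM), a direction that spike-in scaling turns. H2-T23 is higher in every KO library than in every WT library, and the share of all genes so set apart was not counted. The median CPM of Irf1 is higher in central libraries of WT and in endosteal libraries of KO, and spike-in scaling turns the WT direction.

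The genes most like 1 member of each class were sought among 10197 genes with a mean of at least 10 CPM, by the Spearman rho of log2(CPM + 1) over 15 libraries. For H2-K1 they were Xrcc6, a DNA repair protein (rho 0.91), Mcfd2, a cargo receptor partner (0.88), and Bphl, a hydrolase (0.86). For Cd74 they were Hs1bp3 (0.88), Wdfy3, an adaptor of autophagy (0.86), and Zbtb41 (0.85). No MHC gene was among these 6, and with so many genes searched high values are found without any link.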

How the data were processed

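RNA of 30-cell HSC pools was amplified by Smart-seq2 and sequenced as single 50-base reads. Per the study's methods the authors aligned reads with GSNAP to the mouse genome (mm10), discarded reads with more than 1 place, and counted reads on genes without regard to strand with htseq-count (0.5.3p3), and the deposited values are these raw counts. Reads that overlap several genes were left uncounted by that tool (5.93% to 17.0% of the reads of a library were in this class, and 27.9% to 37.7% were on no gene), so genes and overlapping or antisense neighbours cannot be told apart. The table covers 46078 genes, 92 spike-in RNAs and 5 summary categories. Labels describe 16 samples, 15 columns were matched to a group through the sample sheet of the study, without pairing a column with a single sample, and 1 column of per-sample values was not used.

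Counts were analysed in R 4.3.3 with edgeR 4.0.16: genes were filtered with filterByExpr, scaled by TMM and tested with the quasi-likelihood test (glmQLFit, glmQLFTest) on the libraries of the groups compared, or on all 15 for the interaction. P-values were adjusted by Benjamini-Hochberg over all genes tested (the FDR given in the text), with a threshold of 10%, and intervals of log2FC cover 95%. The scripts were tested on simulated counts. A gene removed by the filter was compared in CPM by an exact two-sided permutation test over libraries. DESeq2 1.42.0 was the alternative test. Other alternatives were DESeq2 size factors, spike-in size factors, no filter, thinning to the smallest library, leaving out each library, libraries with at least 0.5% spike-in and, chosen after seeing the data, libraries with under 300 CPM of B cell markers; the same settings for the BCV were also added then. CPM per kb used exon lengths of GENCODE M21, which held 45229 of the genes. Motifs were searched with Python 3.11.15 in RefSeq promoters. Libraries differ in depth by a factor of more than 20, and a level with 0 counts is given with the CPM of 3 counts, which covers counting error only.

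Named genes were the 10 members, pathway genes past the FDR or else the 3 with the smallest p in a comparison, the 3 genes most like H2-K1 and Cd74, Gfra2, and the 2 most abundant genes of each marker list, of which 1 is not reported here. The remaining lists gave summed levels of 0 to 2832 CPM for 6 neutrophil markers (S100a8, S100a9), 3.80 to 580 CPM for 5 erythroid markers (Hbb-bt, Hbb-bs), 4.02 to 129 CPM for 6 T or NK cell markers (Nkg7, Klrb1c) and 17.7 to 97.7 CPM for 6 stromal or endothelial markers (Pecam1, Col1a1). The members and all lists were chosen with earlier results of these data known.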

Additional observations from a re-analysis of the deposited data

Results flagged for a closer look

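In 5 of the 30 combinations of a gene and a group of 4 libraries that were examined, the highest library stood further from the other 3 than Dixon's 95% critical value allows, and chance alone flags about 1 in 20 such groups if values are normal, which CPM with zeros need not be. B2m read 7119 CPM in labelled Gfra2-/- endosteal C, where the other 3 libraries of the group were within 4815 to 4897 CPM. Tapbp read 505 CPM in WT central B against 256 to 268 CPM in the rest of that group. H2-Eb1 read 51.5 CPM in WT endosteal B against 0.0818 to 7.63 CPM. Ciita was flagged in 2 groups, with 11.3 CPM in WT endosteal D and 6.74 CPM in WT central D, where the other WT libraries held 0 to 0.545 CPM. The other 3 WT central libraries were at 0 for Ciita, so any count in the last one would have been flagged. WT endosteal D and WT central D are both among the 4 libraries with under 0.5% of spike-in RNA, and WT central D is among the 4 with more than 300 CPM of B cell markers; WT endosteal D, with 19.1 CPM of these markers, is not.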

How the results depend on the processing

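No paired analysis was possible because a column of counts is known by its group alone and has no replicate number. Depth limits the class II genes most: in the smallest library 3 counts are 4.02 CPM, above many of their levels. The cause of the changes given here was not tested.

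Counts of genes past the threshold depended on the tool. DESeq2 called 216 genes between the WT sites, 156 between the sites with the label Gfra2-/-, 371 between the central genotypes, 132 between the endosteal genotypes and 176 for the interaction, against 0, 0, 6, 0 and 0 with edgeR, and of the members it called 1, Tap1 between the central genotypes. Without a filter edgeR called 58 genes between the WT sites and 134 between the central genotypes, 2 of them members (H2-D1 and Cd74). The share of all genes called was not worked out for these fits. Thinning gave 5 genes between the WT sites and 20 between the central genotypes. Spike-in scaling gave 15 genes between the sites with the label Gfra2-/-, 2 between the central genotypes, 6 between the endosteal genotypes and 193 for the interaction. Libraries with more spike-in gave 1 gene between the central genotypes. Libraries low in B cell markers gave 1 between the WT sites and 10 between the central genotypes. Leaving out 1 library gave 0 to 6 genes between the WT sites and 0 to 8 between the central genotypes. The 6 came without WT endosteal A and the 8 without labelled Gfra2-/- central C, and leaving out any other library of the central genotypes gave 0 or 1. For Ciita outside the fit, the mean difference in CPM went from -1.48 to 2.98 between the WT sites, turning without WT endosteal D, and from -1.59 to 6.16 between the central genotypes, turning without labelled Gfra2-/- central B.

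Signs of small log2FC turned under some settings. H2-K1 between the WT sites was -0.0459 with DESeq2 and with its size factors, and -0.0317 after thinning. The interaction of H2-K1 was -0.0119 without a filter, and H2-D1 between the sites with the label Gfra2-/- was -0.0013 after thinning.

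With spike-in scaling the WT site difference turned to 1.06 for Tap1, 1.11 for Tapbp, 0.43 for Cd74, 0.28 for Irf1 and 0.68 for Canx, with a shift of all genes of 1.58. Between the sites with the label Gfra2-/- (shift -0.46) it turned to -0.18 for H2-K1, -0.17 for H2-D1, -0.32 for B2m and -0.56 for Tapbp. Between the central genotypes (shift 1.75) Tap1 turned to 0.77, Tapbp to 1.71 and Canx to 0.13. Between the endosteal genotypes (shift -0.28) H2-Eb1 turned to 0.84 and Ciita to -0.22. The interaction (shift -2.18) turned to -1.55 for H2-K1, -0.88 for Tap1, -1.67 for Tapbp, -0.69 for H2-Aa, -0.71 for Ciita, -0.78 for Canx and -0.26 for Ctss.

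In libraries with more spike-in the WT site difference turned to 0.55 for Cd74 and 1.51 for H2-Ab1. The site difference with the label Gfra2-/- turned to -0.0342 for H2-K1, -0.22 for H2-D1, -0.084 for B2m and -0.19 for Tap1. Between central genotypes H2-Aa turned to -0.25 and H2-Eb1 to -0.31, between endosteal genotypes Tapbp turned to -0.0202 and H2-Ab1 to -0.11, and the interaction turned to -0.26 for H2-K1 and -2.77 for Ciita.

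In libraries low in B cell markers the WT site difference turned to 0.62 for Cd74 and 1.34 for H2-Ab1. The site difference with the label Gfra2-/- turned to -0.0463 for H2-K1, -0.29 for H2-D1 and 0.74 for Cd74, and H2-Aa between central genotypes turned to -0.34. The interaction turned to -0.26 for H2-K1, 0.0289 for Cd74 and -1.29 for Ciita. In this setting 1 central library with the label Gfra2-/- is left, and it is assumed to vary like the other groups.

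Leaving out 1 library turned the sign in at least 1 fit for the following. Between the WT sites the range was -0.54 to 0.22 for Tapbp, -0.78 to 0.62 for Cd74, -0.84 to 1.34 for H2-Ab1 and -2.19 to 0.97 for H2-Eb1. Between the sites with the label Gfra2-/- it was -0.0046 to 0.19 for H2-K1, -0.14 to 0.14 for H2-D1, -0.15 to 0.25 for B2m, -0.22 to 0.38 for Tap1, -0.26 to 0.24 for Tapbp and -2.0015 to 0.45 for Cd74. Between the central genotypes it was -0.19 to 0.20 for Tapbp, -0.15 to 0.67 for H2-Aa and -0.30 to 3.39 for H2-Eb1. Between the endosteal genotypes it was -0.26 to 0.47 for Tapbp, -0.27 to 0.83 for H2-Ab1 and -0.72 to 1.71 for H2-Eb1. For the interaction it was -0.12 to 0.10 for H2-K1, -0.18 to 0.55 for Tapbp, -1.80 to 0.64 for Cd74, -3.44 to 0.19 for H2-Eb1 and -6.36 to 6.1992 for Ciita.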
